A study of Homo sapiens with 6 samples.

Results

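The enzymes that make and recycle nucleotides were examined in SW-1990 cells, a human line of pancreatic adenocarcinoma that was established out of a spleen metastasis. The set was defined by name and by the pathway step each enzyme serves, and comprised 40 genes. Of these, 38 were read by at least 1 probe set annotated to that gene alone, out of 19775 genes measured in the same way. UCK2 was read only by probe sets annotated to a second gene as well, and ADSS2 was not analysed here. Where a gene had several probe sets, the one with the highest mean over all arrays stood for it.

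Total RNA was hybridised to 6 Affymetrix arrays. Of these, 3 came from cells carrying a lentiviral short hairpin RNA against PRLR, the prolactin receptor (sh-PRLR), and 3 from cells carrying a scrambled hairpin (sh-Ctrl). Both groups had been infected with lentivirus and selected with puromycin, and the labels call the arrays of a group biological replicates. Whether the cells were clones or pools, and how many hairpins were used, is not stated in the labels. The question was how lowering PRLR changes the transcripts of these cells. Values are the deposited log2 expression values, differences are sh-PRLR minus sh-Ctrl on that scale, and ± gives the SD of the replicate arrays.

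PRLR itself averaged 4.17 ± 0.22 in sh-PRLR and 5.02 ± 0.22 in sh-Ctrl over its 7 probe sets (n = 3 each), a difference of -0.85 with no overlap between the groups (two-sided exact permutation p = 0.1, and no smaller p can be reached with this many arrays). The brightest of them, which stands for the gene elsewhere, differed by only -0.23 with overlapping groups (limma adjusted p = 0.811). All 7 were lower in sh-PRLR, but 0 passed by limma when tested singly, with 2 at an unadjusted p under 0.05. Each of the 7 was dimmer than the median gene, whose level was 7.23, and replicates scatter widely at such levels. Arrays of 1 group correlated at 0.953 to 0.957 over all genes and arrays of different groups at 0.950 to 0.953, and no array stood apart. The epithelial markers KRT8, KRT18, KRT19, EPCAM, CDH1 and CLDN4 all lay above the median gene level, at 9.60 to 15.29, and of these CDH1 fell (difference -0.17, limma adjusted p = 0.0284). Of 15 measured markers of fibroblasts, endothelium, immune cells, acini and islets, 13 lay below that level and 0 passed the test (limma, with 2 at an unadjusted p under 0.05). Their summed level was 9.34 to 9.81 in sh-PRLR and 9.40 to 9.56 in sh-Ctrl.

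Nucleotides are built in cells along de novo routes or recovered by salvage. The de novo routes and the salvage of free bases draw on phosphoribosyl pyrophosphate (PRPP), an activated ribose phosphate. The purine ring is assembled on PRPP up to inosine monophosphate (IMP), which is then turned into AMP or GMP, while the pyrimidine ring is made first and then joined to PRPP. Ribonucleotide reductase turns ribonucleotides into the deoxynucleotides needed for DNA, thymidylate synthase supplies the thymine nucleotide, and folate carries the one-carbon units for purines and thymidylate. Salvage kinases and phosphoribosyltransferases reuse nucleosides and free bases. Many of these genes are transcribed more strongly in dividing cells.

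In sh-PRLR cells 10 of the 38 enzymes fell and 0 rose (limma with intensity-dependent variance, Benjamini-Hochberg adjusted p under 0.05 over all genes, with 1 higher at an unadjusted p under 0.05). Across all genes 7.66% passed, 4.32% lower and 3.34% higher. Most members are bright, and bright genes are called more often. Among the 5769 genes with a level inside the middle range of the members (9.23 to 12.64), 9.71% fell and 7.90% rose, against 26.3% of the members that fell. The members that fell were PRPS2, ADSL, CTPS1, TYMS, DTYMK, SAMHD1, DCK, TK1, NME1 and MTHFD1. They came from 7 of the 8 steps into which the set was divided. The step with 0 calls by limma was the branch from IMP to AMP and GMP. Of its 4 measured members 2 were lower and 1 higher at an unadjusted p under 0.05. Such a p was found in 4010 of 19775 genes, and in 2203 of the 5769 genes of similar level.

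The falls were shallow. The median member differed by -0.18, against -0.01 for genes of similar level and -0.00 for all genes, and members ran from -0.76 (SAMHD1) to 0.13 (GMPS). Of the 38 members 28 were lower and 10 higher in sh-PRLR. For 20 of 38, or 52.6%, every sh-PRLR array lay below every sh-Ctrl array, against 14.1% of all genes and 24.2% of genes of similar level. The reverse held for 2 members, ATIC and GMPS, against 11.7% of all genes and 18.9% of genes of similar level. In RNA from bulk cells, fewer cells that use a gene and less of its RNA per cell cannot be told apart. The calls rest on the model of variance. limma's default settings, with 1 prior variance for all levels, called 0 of 38 members and 4 of 19775 genes (0.0202%), with 13 members at an unadjusted p under 0.05. Under these settings such a p was found in 3209 of 19775 genes, and in 1424 of the 5769 genes of similar level. Median centring of the arrays left 3 calls, CTPS1, SAMHD1 and NME1, while the median member stayed lower at -0.21. With 1 array left out, 4 to 12 members fell, the fewest without sh-Ctrl replicate 3 (4) and without sh-Ctrl replicate 2 or sh-PRLR replicate 3 (6 each).

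**Figure D1:**
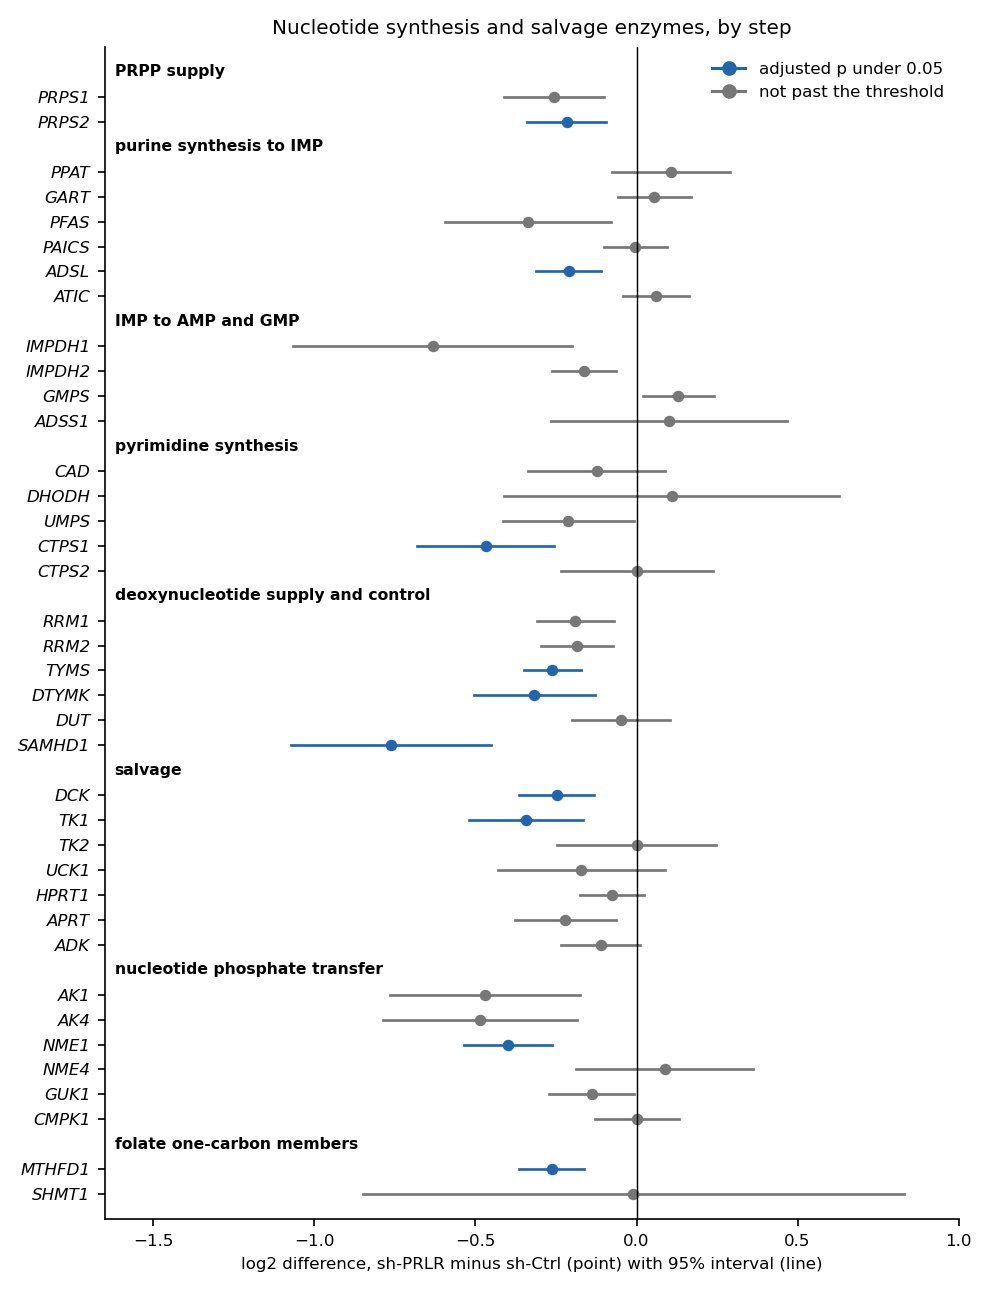
Log2 difference between sh-PRLR and sh-Ctrl (x axis) with its 95% interval for each of the 38 measured enzymes (y axis, grouped by pathway step); blue marks an adjusted p under 0.05. The 10 blue points all lie left of 0, and the deoxynucleotide group has 6 of 6 points left of 0.

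**Figure D2:**
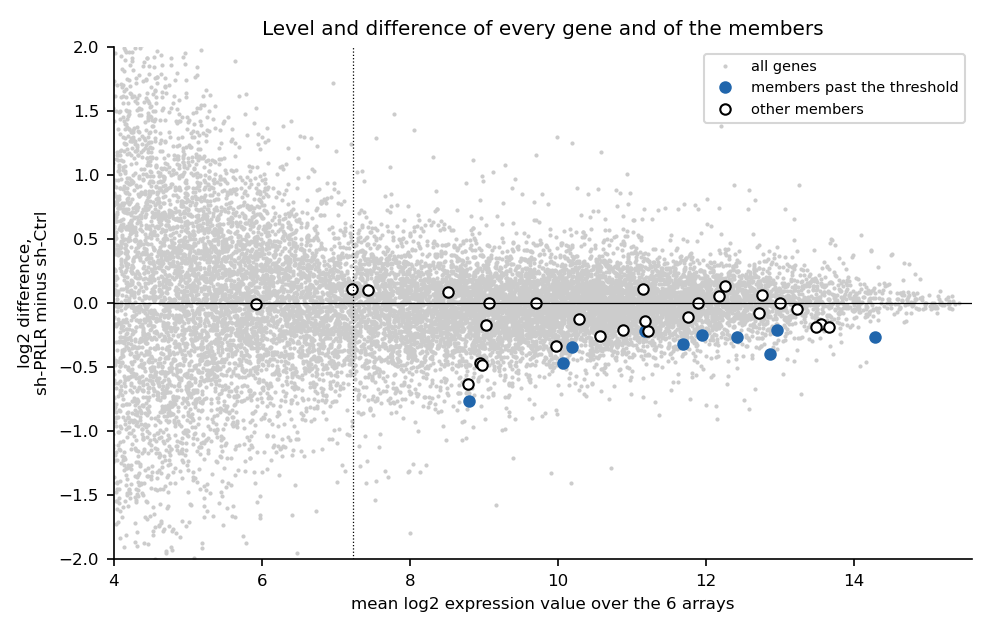
Mean log2 expression value over the 6 arrays (x axis) against the log2 difference between sh-PRLR and sh-Ctrl (y axis) for all genes (grey), members past the threshold (blue) and other members (open); the dotted line is the median gene level of 7.23, and genes beyond the axes are not drawn. Members sit mostly right of the dotted line, where the grey cloud is narrow, and more of them lie below 0 than above.

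Deoxynucleotide supply had the most calls, 3 of 6 members, and all 6 were lower. TYMS, thymidylate synthase, the enzyme that makes dTMP and the target of fluoropyrimidines, read 14.12, 14.15 and 14.20 in sh-PRLR, against 14.44, 14.38 and 14.42 in sh-Ctrl. The 3 sh-PRLR arrays lay below all sh-Ctrl arrays, and the difference of -0.26 (SE 0.04) passed with an adjusted p = 0.00339. DTYMK, the kinase that takes dTMP to its diphosphate, read 11.36, 11.63 and 11.61 in sh-PRLR, against 11.73, 11.84 and 11.99 in sh-Ctrl. Its groups did not overlap either, and its difference of -0.32 (SE 0.09) passed narrowly (adjusted p = 0.0482). The call of DTYMK was lost when any 1 array was left out, while its difference stayed between -0.43 and -0.23 over all settings tried.

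SAMHD1 had the largest difference of the set. It encodes the phosphohydrolase that degrades deoxynucleoside triphosphates, so it acts against the enzymes around it, and it is known as a restriction factor for retroviruses. It read 8.12, 8.58 and 8.58 in sh-PRLR, against 9.12, 9.12 and 9.32 in sh-Ctrl. The difference was -0.76 (SE 0.14, adjusted p = 0.00903), a fold of 0.590, with 1 sh-PRLR array lower than the other two. All 6 SAMHD1 probe sets were lower in sh-PRLR. The 2 below the median gene level differed by -0.17 and -1.27 and did not pass when each probe set was tested on its own. The other 4 passed. Of these, the third brightest read 7.59, 7.47 and 7.25 against 8.64, 8.58 and 8.31 (difference -1.07), and the fourth read 6.72, 6.80 and 7.15 against 8.01, 7.87 and 8.20 (difference -1.14), sh-PRLR first in both. SAMHD1 fell in every other setting tried except default limma (adjusted p = 0.138) and the mean over all its probe sets.

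The 2 ribonucleotide reductase genes lay just outside the threshold. RRM1, the large subunit, read 13.47, 13.35 and 13.36 in sh-PRLR, against 13.51, 13.58 and 13.66 in sh-Ctrl (difference -0.19, SE 0.05, adjusted p = 0.0599). RRM2, the small subunit made in S phase, read 13.67, 13.52 and 13.55 in sh-PRLR, against 13.72, 13.75 and 13.82 in sh-Ctrl (difference -0.18, SE 0.05, adjusted p = 0.0516). In both, all sh-PRLR arrays lay below all sh-Ctrl arrays, and both probe sets of each gene were lower in sh-PRLR. DUT, which removes dUTP, differed by -0.05 (95% interval -0.20 to 0.10) with overlapping groups. Its second bright probe set read 12.47, 12.37 and 12.32 in sh-PRLR, against 12.55, 12.56 and 12.55 in sh-Ctrl, with no overlap and without passing (difference -0.17). The dimmest differed by -0.28, and the mean over the DUT probe sets by -0.16 (limma adjusted p = 0.189).

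In salvage, both cytosolic kinases of deoxynucleosides fell. TK1, the cytosolic thymidine kinase of S phase, read 10.08, 9.94 and 10.04 in sh-PRLR, against 10.27, 10.33 and 10.49 in sh-Ctrl (difference -0.34, SE 0.08, adjusted p = 0.0273). Its second probe set read 9.98, 9.80 and 9.81 in sh-PRLR, against 10.41, 10.36 and 10.65 in sh-Ctrl, a larger difference of -0.61 that passed as well (adjusted p = 0.00484 in the test of single probe sets). DCK, deoxycytidine kinase, which also activates gemcitabine and cytarabine, read 11.80, 11.84 and 11.82 in sh-PRLR, against 12.08, 12.00 and 12.13 in sh-Ctrl (difference -0.25, SE 0.05, adjusted p = 0.0178). The sh-PRLR arrays of both genes lay below all sh-Ctrl arrays. Leaving out sh-PRLR replicate 2 or 3 or sh-Ctrl replicate 3 ended both calls, as did sh-Ctrl replicate 2 for TK1 and sh-Ctrl replicate 1 for DCK. Over all settings the difference was -0.48 to -0.28 for TK1 and -0.28 to -0.22 for DCK.

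The mitochondrial thymidine kinase TK2 differed by 0.00 (95% interval -0.25 to 0.25) with overlapping groups. TK1 minus TK2 within an array was 1.09, 0.89 and 0.86 in sh-PRLR, against 1.02, 1.28 and 1.57 in sh-Ctrl, and these overlapped (exact permutation p = 0.2, adjusted p = 0.267 over 4 pairs of genes with alike names). Each of the 4 pairs was taken because a gene in it fell, so a lower difference was favoured by that choice. The purine base salvage enzymes were also lower without passing. APRT, which reuses adenine, differed by -0.22 (adjusted p = 0.0939) and HPRT1, which reuses hypoxanthine and guanine, by -0.08 (95% interval -0.18 to 0.02), in each case with every sh-PRLR array below every sh-Ctrl array. ADK, adenosine kinase (-0.11), and UCK1, a uridine and cytidine kinase (-0.17), had overlapping groups.

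Among the nucleotide kinases, NME1 fell. It encodes a nucleoside diphosphate kinase, which moves the last phosphate between nucleoside diphosphates and triphosphates, and is also known as a metastasis suppressor. NME1 read 12.53, 12.76 and 12.73 in sh-PRLR, against 13.07, 13.03 and 13.12 in sh-Ctrl. The difference of -0.40 (SE 0.06, adjusted p = 0.0038) passed under every setting tried except default limma (adjusted p = 0.144) and a 1.5-fold limit. It was read by 1 probe set, and its neighbour NME2, a close paralog, was read only by a probe set shared with a readthrough gene, and whether NME2 RNA adds to its signal was not tested. NME4, the mitochondrial family member, differed by 0.09 (95% interval -0.19 to 0.36). NME1 minus NME4 was 4.11, 4.18 and 4.03 in sh-PRLR, against 4.68, 4.41 and 4.69 in sh-Ctrl, with no overlap (exact permutation p = 0.1, the smallest possible, adjusted p = 0.2 over 4 pairs). This pair was taken because NME1 fell, which favoured a lower difference.

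The adenylate kinases AK1, cytosolic, and AK4, mitochondrial, had larger differences than most but did not pass. AK1 read 8.93, 8.41 and 8.79 in sh-PRLR, against 9.13, 9.22 and 9.20 in sh-Ctrl (difference -0.47, adjusted p = 0.0612). AK4 read 8.88, 8.41 and 8.92 in sh-PRLR, against 9.17, 9.26 and 9.25 in sh-Ctrl (difference -0.49, adjusted p = 0.0567). In both, sh-PRLR replicate 2 was the lowest array. The other probe sets of these genes did not share the size: the other of AK1, below the median gene level, differed by 0.25, and the 3 others of AK4 by -0.07, -0.09 and 0.12. GUK1, guanylate kinase, differed by -0.14 (adjusted p = 0.219), and CMPK1, which phosphorylates CMP and UMP, by 0.00 (95% interval -0.13 to 0.13).

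**Figure D3:**
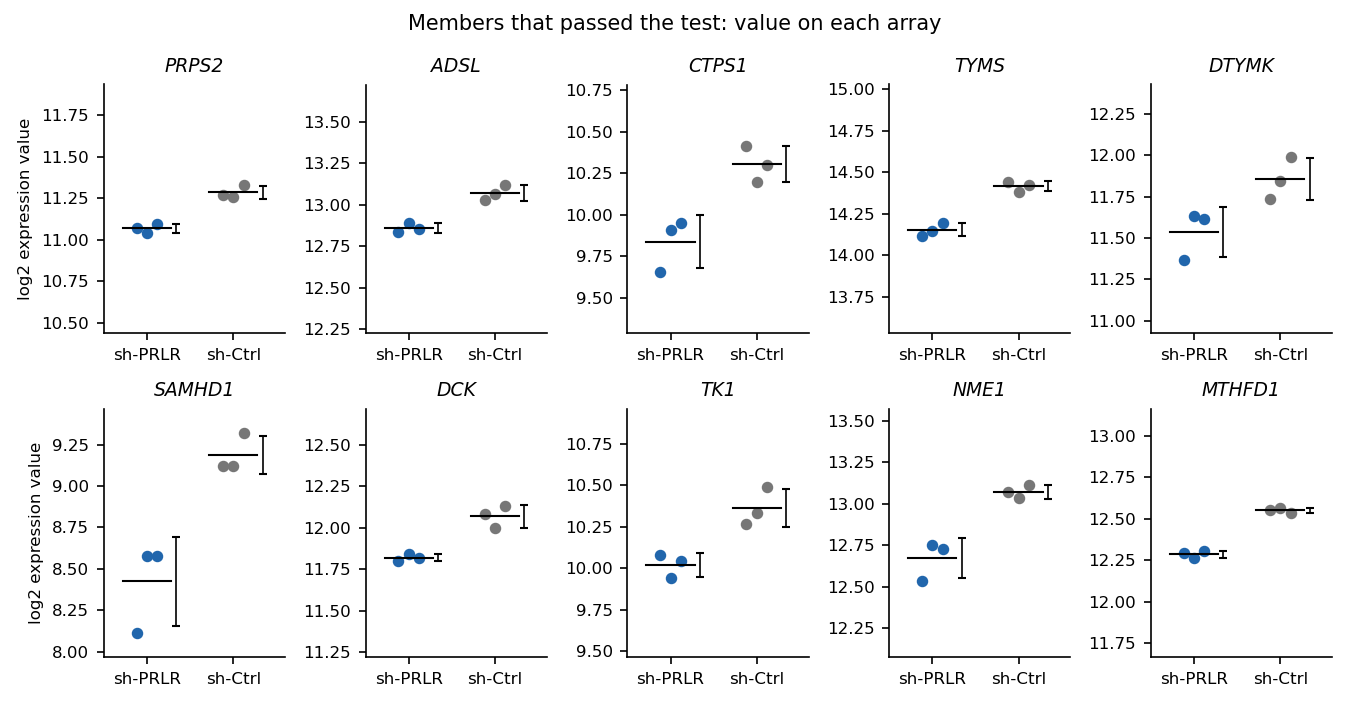
Log2 expression value on each array (y axis, each panel spanning the same range of 1.5 units) in sh-PRLR (blue) and sh-Ctrl (grey) for the 10 enzymes that passed the test; the horizontal line is the mean and the bar the SD (n = 3 each). In every panel the sh-PRLR arrays lie below the sh-Ctrl arrays, and the difference of the means is smallest in ADSL and PRPS2 and largest in SAMHD1.

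In pyrimidine synthesis 1 of 5 members fell. It was CTPS1, a CTP synthase, which turns UTP into CTP and is known for its role in proliferating lymphocytes. CTPS1 read 9.65, 9.91 and 9.95 in sh-PRLR, against 10.42, 10.20 and 10.30 in sh-Ctrl (difference -0.47, SE 0.10, adjusted p = 0.015). Its paralog CTPS2 read 9.52, 9.91 and 9.69 in sh-PRLR, against 9.60, 9.73 and 9.79 in sh-Ctrl, and differed by 0.00 (95% interval -0.23 to 0.24). The within-array difference CTPS1 minus CTPS2 was 0.13, 0.00 and 0.26 in sh-PRLR, against 0.82, 0.47 and 0.51 in sh-Ctrl, with no overlap (exact permutation p = 0.1, the smallest possible, adjusted p = 0.2 over 4 pairs). This pair was taken because CTPS1 fell, which favoured a lower difference. The second CTPS2 probe set differed by -0.20, with every sh-PRLR array below every sh-Ctrl array, and did not pass. Without sh-Ctrl replicate 1 or 3 CTPS1 no longer passed, and its difference ran over -0.52 to -0.38 in the settings tried.

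The earlier pyrimidine enzymes did not pass. CAD, the protein that carries the first steps of the route, differed by -0.12 (95% interval -0.34 to 0.09). DHODH, the mitochondrial dehydrogenase, lay at the median gene level and differed by 0.11 (95% interval -0.41 to 0.63), an interval too wide to place it. UMPS, which makes UMP, differed by -0.21 (adjusted p = 0.225), and all 3 had overlapping groups.

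In purine synthesis up to IMP, 1 of 6 members passed. PPAT, the enzyme of the committed step, read 11.32, 11.18 and 11.11 in sh-PRLR, against 10.96, 11.08 and 11.25 in sh-Ctrl (difference 0.11, 95% interval -0.08 to 0.29). PAICS read 13.00, 13.02 and 12.98 in sh-PRLR, against 12.99, 12.97 and 13.05 in sh-Ctrl (difference -0.00, 95% interval -0.10 to 0.09), although its other bright probe set differed by -0.14 with no overlap and did not pass. GART, a protein with several activities of the route in a single chain, differed by 0.06 (95% interval -0.06 to 0.17), and 6 of its 9 probe sets were higher and 3 lower. ATIC, which closes the ring, differed by 0.06 (95% interval -0.04 to 0.16).

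ADSL was the member of this route that fell. Adenylosuccinate lyase acts both on the way to IMP and in AMP synthesis. It read 12.83, 12.89 and 12.86 in sh-PRLR, against 13.03, 13.07 and 13.12 in sh-Ctrl (difference -0.21, SE 0.05, adjusted p = 0.0192), and its second probe set differed by -0.24. The call was lost without sh-PRLR replicate 3, sh-Ctrl replicate 2 or sh-Ctrl replicate 3, with differences of -0.24 to -0.19 over the settings tried. PFAS, the amidotransferase before ring closure, read 9.83, 10.06 and 9.55 in sh-PRLR, against 10.13, 10.21 and 10.10 in sh-Ctrl, also without overlap (difference -0.34, adjusted p = 0.119), and its sh-PRLR arrays were more spread than its sh-Ctrl arrays.

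PRPP synthetase, which feeds the de novo routes and the salvage of free bases, was lower in both forms. PRPS2 read 11.07, 11.04 and 11.10 in sh-PRLR, against 11.27, 11.26 and 11.33 in sh-Ctrl (difference -0.22, SE 0.06, adjusted p = 0.0403). PRPS1 read 10.33, 10.51 and 10.49 in sh-PRLR, against 10.71, 10.72 and 10.67 in sh-Ctrl (difference -0.26, SE 0.07, adjusted p = 0.0522). Neither gene's groups overlapped, and PRPS2 minus PRPS1 differed between the groups by 0.04 (exact permutation p = 0.7). The call of PRPS2 was lost when any 1 array was left out, and its difference was -0.32 to -0.19 over the settings tried.

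At the branch from IMP, 0 of 4 measured members passed by limma, with 2 lower and 1 higher at an unadjusted p under 0.05. IMPDH2, the inducible form of IMP dehydrogenase, the rate-limiting enzyme of guanine nucleotide synthesis, read 13.51, 13.49 and 13.44 in sh-PRLR, against 13.59, 13.66 and 13.69 in sh-Ctrl (difference -0.16, SE 0.04, adjusted p = 0.0516). IMPDH1, the other form, differed by -0.63 (SE 0.20, adjusted p = 0.0819) with wide scatter and overlap. GMPS, GMP synthetase, the next enzyme, was higher at 12.30, 12.34 and 12.35 in sh-PRLR, against 12.19, 12.15 and 12.26 in sh-Ctrl (difference 0.13, adjusted p = 0.159). Its other 2 probe sets were lower, by -0.03 and -0.14, and with the mean of its probe sets the GMPS difference was -0.01 (limma adjusted p = 0.965). ADSS1, the muscle type adenylosuccinate synthase, differed by 0.10 (95% interval -0.27 to 0.47).

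Of the folate enzymes in the set, MTHFD1 fell. It encodes the cytosolic protein that interconverts the one-carbon forms of folate used for purines and thymidylate. MTHFD1 read 12.29, 12.26 and 12.30 in sh-PRLR, against 12.55, 12.57 and 12.53 in sh-Ctrl, and the groups did not overlap (difference -0.26, SE 0.05, adjusted p = 0.00612). Its second probe set, below the median gene level, differed by -0.09, and with the mean of both the difference was -0.18 and did not pass (adjusted p = 0.566). SHMT1, the cytosolic serine hydroxymethyltransferase, lay below the median gene level at 5.92 ± 0.52 in sh-PRLR and 5.93 ± 0.39 in sh-Ctrl, and its 95% interval of -0.85 to 0.83 leaves its difference unresolved.

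The members were read by 95 probe sets in all, of which 69 were lower and 26 higher in sh-PRLR. Tested singly among the 41091 probe sets that carry 1 gene symbol, 14 of the 95 fell and 0 rose by limma, against 2.50% and 2.17% of all such probe sets. These shares are not matched for level, and only 27 of the 95 lay below the median gene level. In the gene test, the share that fell was 4.32% of all genes but 9.71% of genes of similar level. The 14 belonged to 9 of the 10 members that fell in the gene test, PRPS2 being the exception at this stricter adjustment. For DTYMK the brightest probe set missed the threshold there (adjusted p = 0.0660) while the second brightest passed, at 10.13, 10.06 and 10.18 in sh-PRLR, against 10.38, 10.49 and 10.41 in sh-Ctrl. Of the 25 probe sets of these 10 genes, 24 were lower in sh-PRLR, and the other was a DTYMK probe set below the median gene level. The 10 genes were picked by the fall of their brightest probe set, so the direction of that probe set was fixed in advance. Except for PRPS2 and DTYMK, those brightest probe sets are among the 14. CTPS1, DCK and NME1 had no other probe set.

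**Figure D4:**
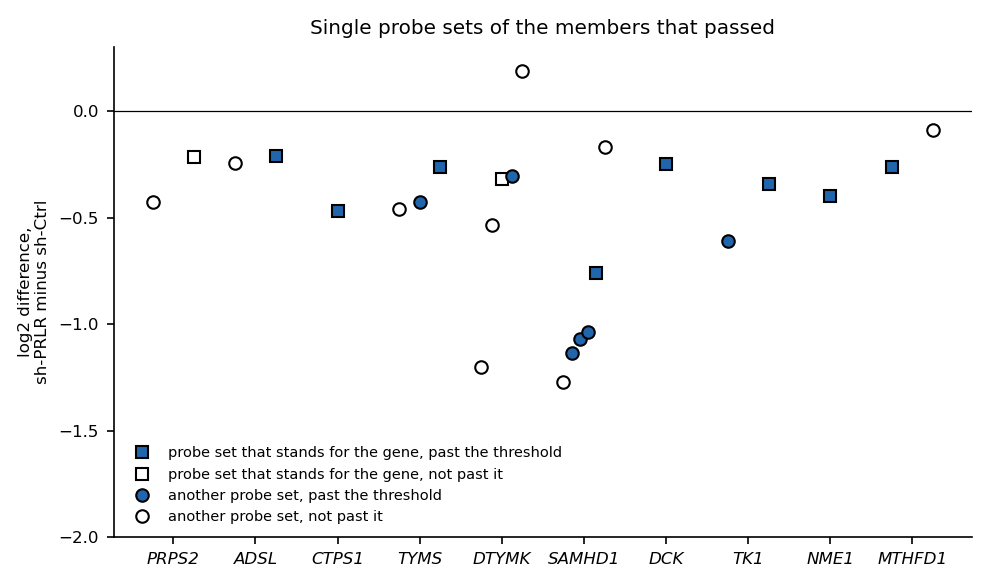
Log2 difference between sh-PRLR and sh-Ctrl (y axis) for each of the 25 probe sets of the 10 enzymes that passed (x axis); squares stand for the gene in the gene test, and filled symbols passed at an adjusted p of 0.05 when probe sets were tested singly. All symbols but 1 of DTYMK lie below 0, and 4 SAMHD1 probe sets are filled. The squares lie below 0 by the way the genes were chosen.

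Promoters are shown for TYMS, TK1, PRPS2 and NME1, which fell and serve different steps. Where a gene had several windows, the one with the most matches before the start is shown. RefSeq windows of 250 bases before to 50 bases after a start (GRCh38.p14) were matched by symbol for 36 of the 38 measured members. Below, the 250 bases before the start are shown 5′ to 3′ on the gene's strand, with capitals marking an E2F site (TTTCCCGC or TTTGGCGC), an E-box (CACGTG) or a CCAAT box (CCAAT), each searched on both strands. E2F factors are known regulators of S phase genes, the E-box is bound by MYC, and the CCAAT box by NF-Y. The windows are chr18:657403-657652 for TYMS, chrX:12791162-12791411 for PRPS2 and chr17:51153309-51153558 for NME1, all on the plus strand, and chr17:78187053-78187302 for TK1 on the minus strand.
TYMS: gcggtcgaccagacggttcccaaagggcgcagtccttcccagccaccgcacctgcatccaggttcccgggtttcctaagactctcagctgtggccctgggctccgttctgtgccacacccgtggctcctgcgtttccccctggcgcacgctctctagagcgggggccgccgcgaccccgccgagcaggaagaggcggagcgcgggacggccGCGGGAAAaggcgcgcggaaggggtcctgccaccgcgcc
PRPS2: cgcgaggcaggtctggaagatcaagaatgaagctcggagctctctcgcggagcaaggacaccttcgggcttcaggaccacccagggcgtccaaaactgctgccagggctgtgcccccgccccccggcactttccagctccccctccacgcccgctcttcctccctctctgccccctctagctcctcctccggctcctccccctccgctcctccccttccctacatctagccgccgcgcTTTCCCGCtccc
TK1: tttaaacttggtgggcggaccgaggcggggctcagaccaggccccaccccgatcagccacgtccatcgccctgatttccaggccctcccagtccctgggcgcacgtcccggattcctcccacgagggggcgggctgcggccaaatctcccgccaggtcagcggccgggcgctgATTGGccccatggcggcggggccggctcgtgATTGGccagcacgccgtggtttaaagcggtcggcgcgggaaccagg
NME1: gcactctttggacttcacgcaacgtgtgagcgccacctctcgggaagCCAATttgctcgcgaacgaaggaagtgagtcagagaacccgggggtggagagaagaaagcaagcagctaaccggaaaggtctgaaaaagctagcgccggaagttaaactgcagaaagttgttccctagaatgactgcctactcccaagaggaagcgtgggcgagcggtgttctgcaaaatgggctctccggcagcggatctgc

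The E2F letters begin 39 bases before the start of TYMS, read on the opposite strand, and 12 bases before that of PRPS2, and a CCAAT box occurs 2 times before TK1, both on the opposite strand, and 1 time before NME1. Over the whole windows, an E2F site of either form was found in 3 of 9 members that fell (DCK, PRPS2 and TYMS) and in 2 of 27 measured members that did not pass (DUT and GART), against 2.75% of 27305 genes. An E-box was found in 3 of 9 members that fell (DCK, MTHFD1 and NME1) and in 5 of 27 that did not, against 8.77% of genes. A CCAAT box was found in 5 of 9 and in 9 of 27, against 39.7% of genes. PPAT and PAICS start 137 bases apart on opposite strands and share 236 bases of their windows, and neither passed. These matches are counts of letters, with a gene counted if any of its windows matched, and are given without a test.

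The rest of the pathway was described with 4 further lists, other folate genes, other kinases and salvage genes, breakdown and pool cleaning, and nucleoside transporters, with 55 measured genes. Of these 6 rose and 2 fell, and their median difference was 0.03. Across all genes 3.34% rose and 4.32% fell. Among genes inside the middle range of the members' levels 7.90% rose and 9.71% fell. Breakdown and pool cleaning held 3 of the rises and 1 of the falls among 20 measured genes. UPP1, uridine phosphorylase, which splits uridine into uracil and ribose phosphate, read 13.12, 13.09 and 13.02 in sh-PRLR, against 12.23, 12.30 and 12.26 in sh-Ctrl. This was a difference of 0.81 (SE 0.05, adjusted p = 1.43e-05), a fold of 1.75, and it passed under every setting tried except default limma (adjusted p = 0.0563).

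NT5E, the surface nucleotidase CD73 that makes adenosine from AMP, read 12.06, 12.61 and 12.60 in sh-PRLR, against 11.70, 11.52 and 11.61 in sh-Ctrl (difference 0.81, SE 0.13, adjusted p = 0.00399). All 4 of its probe sets were higher in sh-PRLR, 2 of them past the threshold, and sh-PRLR replicate 1 was the lowest array of that group. NT5C, a cytosolic deoxynucleotidase, read 8.97, 9.06 and 9.13 in sh-PRLR, against 8.78, 8.49 and 8.53 in sh-Ctrl (difference 0.45, adjusted p = 0.0368). DCTPP1, which hydrolyses dCTP and its modified forms, read 11.28, 11.36 and 11.34 in sh-PRLR, against 11.51, 11.51 and 11.68 in sh-Ctrl (difference -0.24, adjusted p = 0.0411). The groups of all these genes did not overlap. DCTPP1 lost its call whichever array was left out, and NT5C whichever but sh-Ctrl replicate 1. NT5C also lost it without probe sets named _x_at or _s_at (0.34, adjusted p = 0.320).

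In the folate list of 16 measured genes, ALDH1L1, which oxidises the formyl folate used in purine synthesis to carbon dioxide, rose to 10.67 ± 0.07 in sh-PRLR, against 9.98 ± 0.08 in sh-Ctrl (difference 0.69, adjusted p = 0.000475). Its other probe set, below the median gene level, differed by 0.05, and with the mean of both ALDH1L1 no longer passed (0.37, adjusted p = 0.204). MTR, methionine synthase, fell to 11.27 ± 0.03 in sh-PRLR, against 11.53 ± 0.09 in sh-Ctrl (difference -0.26, adjusted p = 0.0293). Among 12 other kinases and salvage genes, NME3, another nucleoside diphosphate kinase, rose by 0.59 (adjusted p = 0.0158), and PRPSAP1, a protein associated with PRPP synthetase, rose by 0.20 (adjusted p = 0.0473). Among the NME genes, NME1 was thus lower and NME3 higher in sh-PRLR. PRPSAP1 lost its call whichever array was left out, NME3 without replicate 2 or 3 of either group, and MTR without sh-PRLR replicate 2 or 3 or sh-Ctrl replicate 1 or 3. Of 7 nucleoside transporters 0 passed by limma, with 0 at an unadjusted p under 0.05, and 4 lay below the median gene level.

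**Figure D5:**
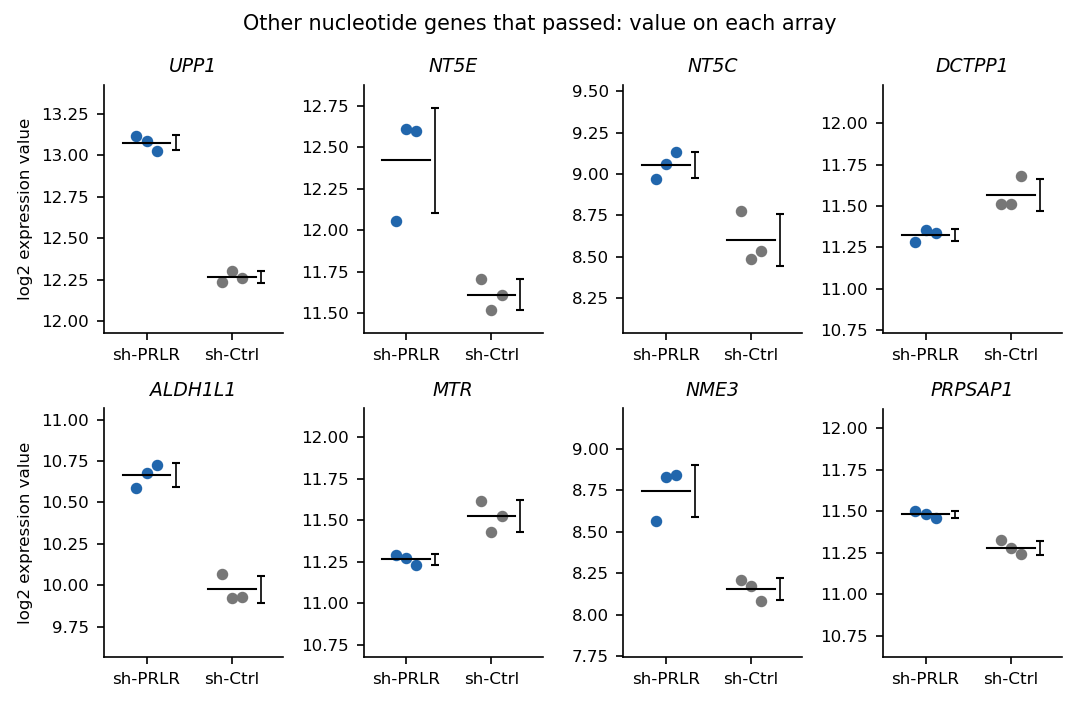
Log2 expression value on each array (y axis, each panel spanning 1.5 units) in sh-PRLR (blue) and sh-Ctrl (grey) for the 8 other nucleotide genes that passed; the horizontal line is the mean and the bar the SD (n = 3 each). UPP1, NT5E, NT5C, ALDH1L1, NME3 and PRPSAP1 are higher in sh-PRLR, and DCTPP1 and MTR are lower.

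Replication genes were measured beside the enzymes because both serve DNA synthesis. The list of 14 genes held genes of replication origins and forks, and also UHRF1 and the cyclin gene CCNE2. Of these 14, 8 fell and 0 rose, with 0 higher at an unadjusted p under 0.05 by limma, and their median was -0.36. Across all genes 4.32% fell and 3.34% rose. Among genes inside the middle range of the members' levels 9.71% fell and 7.90% rose. UHRF1 (-0.87), MCM3 (-0.58), CCNE2 (-0.75) and GINS2 (-0.91) had the smallest p. GINS2 did not pass without probe sets named _x_at or _s_at (-0.27, adjusted p = 0.821) or with the mean of its probe sets (-0.78, adjusted p = 0.331). Of 8 mitosis genes 1 passed, AURKA, which rose by 0.26, and their median was 0.09. An E2F site of either form was present in 9 of 11 replication genes with a promoter window, against 2.75% of genes. A CCAAT box was present in 9 of 11 as well, against 39.7% of genes, and an E-box in 2 of 11, against 8.77%. These counts were not tested. Of the regulators, MYC differed by -0.04 (95% interval -0.14 to 0.06), E2F1, E2F2 and E2F3 by 0.07, -0.15 and -0.04 without passing, and ATF4, a stress factor, rose by 0.15 (adjusted p = 0.0366). ATF4 lost its call whichever array but sh-Ctrl replicate 3 was left out, and AURKA without sh-PRLR replicate 3 or any 1 of the sh-Ctrl arrays. AURKA also did not pass without probe sets named _x_at or _s_at (0.14, adjusted p = 0.807) or with the mean of its probe sets (0.24, adjusted p = 0.205). Whether the share of cells in S phase has a part in the falls of the nucleotide enzymes was not tested.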

How the data were processed

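Total RNA of 6 samples was hybridised to Affymetrix arrays with 54675 probe sets. The deposited log2 expression values were used as given. Per the submitters' processing notes, the tools include MAS5, RMA and affy, whose roles are not stated. The 2% trimmed mean of the values on the linear scale is 500.0 on every array, as global scaling gives, and no detection calls were used. Values scatter more at low level, and arrays give no read depth, so the number of arrays limits the precision.

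Symbols came from the platform annotation, and 41043 probe sets were looked up by Entrez ID in RefSeq (GRCh38.p14), which changed 0. The 62 control probe sets were left out. Both groups were fitted with limma 3.58.1 under R 4.3.3 (eBayes with trend and robust), two-sided, with Benjamini-Hochberg adjustment over 19775 genes, or over 41091 probe sets for single probe sets, at 0.05. "Rose" and "fell" mean past this threshold. Genes with alike names, such as TK1 and TK2, were compared by exact permutation of within-array differences over 20 assignments. Only pairs in which a gene had fallen were compared, so a lower difference within a pair was favoured by that choice. Other pairs of members, such as IMPDH1 and IMPDH2, were not compared in this way. All passing members, the genes compared with them in this way and up to 4 passing genes of each other list were named. Every other member was given by its values.

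The members, lists and test were chosen with earlier results of these data known. Replicate numbers are alike in both groups, but the deviations of same-numbered arrays correlated at -0.06, 0.06 and -0.10, so they were not treated as pairs. Alternatives were another variance model, 2 other scalings, a filter on dim genes, other probe set choices, a fold limit, a replicate block and leaving out each array. Plots used matplotlib 3.10.9 and Python 3.11.15.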

Additional observations from a re-analysis of the deposited data

How the results depend on the processing

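The median member stayed lower in sh-PRLR under each setting tried, at -0.20 with quantile normalisation, -0.21 with median centring, -0.15 with the mean of all probe sets, and -0.20 to -0.15 when 1 array was left out. Members that rose numbered 0 throughout. The number that fell, 10, became 0 with default limma, 3 with median centring, 17 without the dimmest 40% of genes, 5 with the mean of all probe sets and 1 with a 1.5-fold limit, and 4 to 12 when 1 array was left out. It was lowest without sh-Ctrl replicate 3 (4), and 6 without sh-PRLR replicate 3 or sh-Ctrl replicate 2. With the replicate number as a block it was 9, and all genes passing were 1090, where the labels' numbers do not show that arrays are paired. Without the dimmest 40% of genes, 2026 of 11865 genes passed, 1156 lower and 870 higher, beside the 17 of 37 members that fell.

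All genes passing, 1514, became 4 with default limma, 504 with median centring, 609 with the mean of all probe sets and 355 with a 1.5-fold limit, and 665 to 1322 when 1 array was left out (1322 without sh-PRLR replicate 1, 665 to 948 without any other). The share of calls that were higher was 43.6%, and 28.4% with median centring. Member probe sets passing, 14, became 0 with default limma. Other nucleotide genes that fell, 2, became 0 with default limma, median centring, the mean of all probe sets or a 1.5-fold limit, 4 with quantile normalisation, 5 without the dimmest genes and 1 with the replicate block, and 0 to 1 when 1 array was left out. Those that rose, 6, became 0 with default limma, and 3 with the mean of all probe sets or without probe sets named _x_at and _s_at, and 3 to 5 when 1 array was left out. The difference of PRLR was -0.96 to -0.73 when 1 array was left out.

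NME1, UPP1, NT5E, MCM3, CCNE2 and UHRF1 passed in every setting but default limma, the 1.5-fold limit left aside. Of the 28 members that did not pass, 9 passed in at least 1 other setting, and 14 changed sign in at least 1 without passing. The cause was not tested. Low signal limits SHMT1, DHODH and PRLR.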
